A study of Homo sapiens with 14 samples.

Results

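The day-by-day course of gene expression under 2',3'-dideoxycytidine (ddC) was followed in 12 of the 14 libraries of the series, those whose titles end in Day1 to Day4. They hold polyadenylated RNA of IMR90 cells, an established wild-type line of human fetal lung fibroblasts, kept in 20 uM ddC for 24, 48, 72 or 96 h, with 3 biological replicates at each time. The other 2 libraries came from untreated cells of the same line. Their labels name a water vehicle and 4 days, whereas the design text gives 0 h. They did not enter the slope, and no untreated series over the same days was analysed here. Days in culture and days of ddC therefore cannot be told apart in any slope below. The stated aim was to follow transcription through stages of mitochondrial DNA (mtDNA) depletion.

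A dideoxynucleotide lacks the 3' hydroxyl that the next nucleotide is joined to, so it ends the growing strand. DNA polymerase gamma, which copies mtDNA, takes up ddC, and mtDNA is then diluted as cells grow and turn it over. Loss of mtDNA removes the templates for core respiratory chain subunits, and responses known from such cells include the ATF4 program of amino acid synthesis, changes in glycolysis and slower proliferation. The deposited table held 0 genes of the mitochondrial chromosome, and RNA encoded by mtDNA was not analysed here.

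For each of 13196 genes passing a filter on low counts, log2 expression was fitted to the day (1 to 4) as a straight line, and the slope was tested with edgeR's quasi-likelihood test. Slopes are in log2 units per day, given ± SE over 12 libraries. Calls were two-sided, at an adjusted p (Benjamini-Hochberg, all genes tested) under 0.05. Levels per library are in CPM, counts scaled to library size, after TMM scaling. A second fit with 1 mean per day gave the 3 daily steps, the test of departure from a line, and the last step minus the mean daily change between 24 and 72 h. The linear slope and that last quantity are orthogonal contrasts of the 4 days. A called gene was termed late-onset, middle-step or first-step where the step from 72 to 96 h, from 48 to 72 h or from 24 to 48 h made up over 0.6 of its whole change. It was termed steady where no step did and all 3 went the same way, and uneven otherwise.

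Library totals ranged from 9398703 to 12147402 counts. Among the ddC libraries the first principal component (35.3% of the variance) followed nuclear-retained RNA rather than the day. The nuclear-retained transcript MALAT1 spanned 52.1 to 409 CPM, with both low and high libraries at 24, 48 and 72 h (slope adjusted p = 0.920). An index of reads opposite to abundant genes, over 51 gene pairs, lay at 0.229 to 0.284 per 1000 in the libraries at 24 h and replicates 1 and 2 at 48 h. It lay at 0.331 to 0.398 in replicate 3 at 48 h and in all libraries at 72 and 96 h. The step from 48 to 72 h therefore coincides with this change of library set, and only replicate 3 at 48 h separates them, whereas the step from 72 to 96 h lies within the higher set. The index rests on 75 to 147 reads per library. Of 10 fibroblast markers 9 had lowest values of 102 to 15694 CPM, and S100A4 had 4.58 to 7.46 CPM. The epithelial CDH1, SFTPC and NKX2-1, the endothelial PECAM1 and CDH5 and the T cell CD3E had 0 counts throughout, whereas TEK of the endothelial list had 34.0 to 45.7 CPM and CD68 of the blood cell list 43.0 to 60.8 CPM (slope adjusted p = 0.659 and 0.542).

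**Figure D1:**
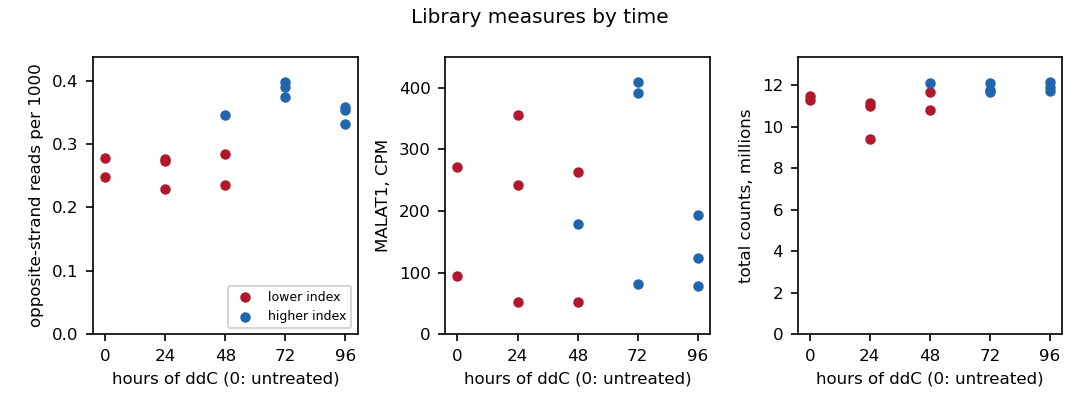
Opposite-strand reads per 1000 reads of 51 abundant genes, MALAT1 in CPM and total counts (vertical axes) against hours of ddC (0 is untreated), 1 point per library, coloured by index set. The index is 0.331 or more in replicate 3 at 48 h and in every library at 72 and 96 h, while MALAT1 spreads from 52.1 to 409 CPM with no order in time.

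Over the 4 days 327 genes rose and 71 fell, mostly by small amounts. The 398 called genes were 3.02% of those tested, with 2.48% rising and 0.538% falling, and 1924 genes (14.6%) had an unadjusted p under 0.05. The median size of a called slope was 0.12 per day, and the median fold between 96 and 24 h was 1.29. At least 2-fold changes were seen in 14 rising and 2 falling genes. In 397 of the 398 all libraries at 96 h lay beyond all at 24 h in CPM, as they did in 19.1% of all genes tested. The exception was SLC6A9. The slopes were called on these same libraries, so this separation is not separate support for them. In RNA pooled from whole cultures, a change in the share of cells expressing a gene and a change in its RNA per cell cannot be told apart.

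Daily steps grew over the course. Among rising genes the median log2 step was 0.04 between 24 and 48 h, 0.13 between 48 and 72 h and 0.20 between 72 and 96 h. Among falling genes the medians were -0.04, -0.13 and -0.17, and over all genes tested each was 0.00. The last day made up a median of 53.1% of the whole rise and 53.5% of the whole fall. By class 150 genes were steady (37.7%), 151 late-onset (37.9%), 65 middle-step (16.3%), 10 first-step and 22 uneven. Rising and falling genes divided alike, with 38.2% of rising and 36.6% of falling genes late-onset. Steady genes rose by medians of 0.10, 0.13 and 0.15, late-onset genes by 0.01, 0.09 and 0.27, and middle-step genes by -0.02, 0.26 and 0.11.

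A boundary between steady and late-onset was not sharp. The last step made up 50 to 60% of the change in 66 called genes, just outside the late-onset class, and 60 to 70% in 65, just inside it. The median SE of a single step was 0.07, against a median whole change of 0.36, so the class of a single gene is rough. With the share set at 0.5 or 0.7 in place of 0.6, late-onset genes were 54.5% or 21.6%. The division also moved with terms for the libraries. Of the 68 slope genes called with library set as a model term 82.4% were steady, 14.7% late-onset and 2.94% middle-step, and of the 400 called with the opposite-strand index as a covariate 66.0%, 25.2% and 3.25%.

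Departure from a straight line was called in 2 genes (0.0152%), SULF1 and DDIT4, and 757 genes (5.74%) had an unadjusted p under 0.05. The last step differed from the earlier pace in 0 genes by edgeR, with 907 genes (6.87%) at an unadjusted p under 0.05. limma-voom also called 0, and DESeq2 called 11. Among the 398 slope genes 95 (23.9%) reached that unadjusted p, of which 80 rose faster and 11 fell faster on the last day, 3 rose slower and 1 fell slower. The line treats curvature as spread, which makes bent courses harder to call. A linear contrast of 4 free day means called 452 genes, of which 45.4% were late-onset and 30.5% steady, and 54 of the 67 genes it added were late-onset. Between 72 and 24 h 11 genes rose (0.0834%) and 2 fell (0.0152%), with 723 genes (5.48%) at an unadjusted p under 0.05. Between 96 and 72 h 62 rose (0.470%) and 7 fell (0.0530%). All 13 of the first set were slope genes, among them HAS2, ACTA2, TAGLN, ACTG2, ELN and IGFBP3 rising and PCDH18 and TXNIP, an inhibitor of thioredoxin, falling, singled out after their values were seen.

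**Figure D2:**
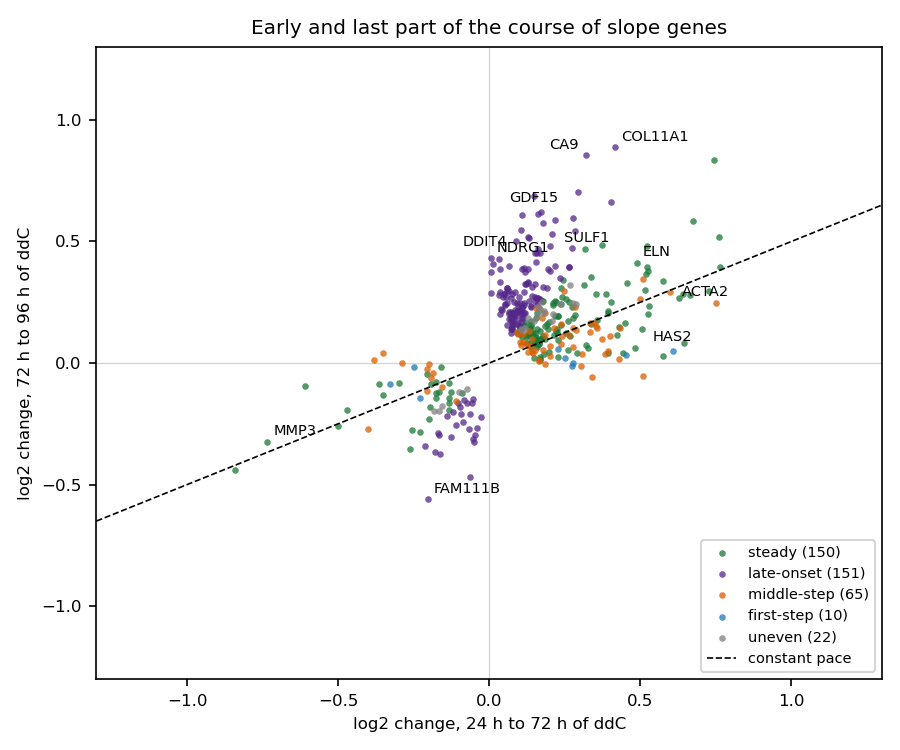
Log2 change from 72 to 96 h of ddC (vertical) against log2 change from 24 to 72 h (horizontal) for the 398 slope genes, coloured by class, with the line of a constant daily pace; 5 genes lie beyond the axes. Both axes share the 72 h libraries, so their relation is not tested. By the definition of the class, rising late-onset genes stand above the line and falling ones below it.

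These counts rested on the libraries at 96 h. Without replicate 1, 2 or 3 at 96 h the slope was called in 157, 249 or 203 genes, and without all 3 in 2 genes. Of falling genes 44 and 131 were called without replicates 1 and 3 at 24 h. With library set as a model term 68 genes were called (65 rising, 3 falling), and all 398 kept their sign. Within the 7 libraries of the higher set, from 48 to 96 h, 193 rose and 41 fell.

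The steady rising genes of smallest p, at 4 log2 CPM or more, were HAS2, RDH10, HHIP, LOX and STC2. HAS2, the synthase of the matrix polysaccharide hyaluronan (hg19 chromosome 8, 122625271 to 122653630, - strand), stood at 63.8, 58.7 and 62.2 CPM at 24 h, 73.3, 70.9 and 75.4 CPM at 48 h, 89.8, 82.1 and 90.9 CPM at 72 h and 102, 95.7 and 91.4 CPM at 96 h. Every library was above all libraries of the day before it, and the slope was 0.22 ± 0.02 (adjusted p = 6.17e-06). Its steps were 0.25, 0.26 and 0.14, so that the last was not the largest. Untreated cells had 81.4 and 64.8 CPM, within the range of 24 to 72 h rather than below it.

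RDH10, a retinol dehydrogenase of the retinoic acid pathway, stood at 37.9, 36.0 and 39.8 CPM at 24 h, 42.5, 42.4 and 41.4 CPM at 48 h, 47.7, 45.4 and 54.8 CPM at 72 h and 76.6, 65.4 and 64.7 CPM at 96 h. Its libraries did not overlap between consecutive days, and it rose by 0.29 ± 0.03 (adjusted p = 2.23e-05). HHIP, a surface protein that binds Hedgehog ligands, stood at 11.95, 11.8 and 13.1 CPM at 24 h, 17.5, 13.1 and 14.7 CPM at 48 h, 17.3, 18.2 and 19.7 CPM at 72 h and 25.4, 22.6 and 21.5 CPM at 96 h. Its libraries at 48 h met those at 24 h and overlapped those at 72 h, while those at 96 h lay above all others, and the slope was 0.30 ± 0.03 (adjusted p = 3.97e-05). Its steps of 0.29, 0.29 and 0.34 were nearly equal. LOX, the oxidase that crosslinks collagen and elastin, had a slope of 0.18 ± 0.02 (adjusted p = 3.97e-05), and STC2, a secreted stanniocalcin, one of 0.16 ± 0.02 (adjusted p = 4.80e-05). Their steps were 0.04, 0.20 and 0.31 for LOX and 0.02, 0.20 and 0.26 for STC2, so both changed little on the first day although classed as steady. These 5 rising genes were called without any 1 library, and also where the library set was a term (largest adjusted p = 0.0263).

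The corresponding falling genes were PCDH18, TRPA1, EYA4, NRP1 and TCF12. PCDH18, a protocadherin of cell adhesion, stood at 155, 157 and 147 CPM at 24 h, 128, 133 and 135 CPM at 48 h, 125, 129 and 118 CPM at 72 h and 118, 116 and 117 CPM at 96 h. The libraries at 24 h lay above all later ones, those at 48 and 72 h overlapped, and the slope was -0.12 ± 0.02 (adjusted p = 3.82e-04). TRPA1, a cation channel gated by irritants, stood at 50.7, 54.8 and 54.0 CPM at 24 h, 54.5, 48.1 and 56.3 CPM at 48 h, 40.6, 46.8 and 45.8 CPM at 72 h and 30.9, 37.2 and 36.0 CPM at 96 h and fell by -0.21 ± 0.03 (adjusted p = 3.81e-04). Its libraries at 24 and 48 h overlapped, and those at 96 h lay below all others. The transcriptional coactivator EYA4, the neuropilin coreceptor NRP1 and the transcription factor TCF12 had slopes of -0.17 ± 0.03, -0.10 ± 0.02 and -0.09 ± 0.02 (largest adjusted p = 0.00314). Of these 5 falling genes only TRPA1 passed with library set as a model term (adjusted p = 0.0229, against 0.0997 for PCDH18 and 0.0524 for EYA4).

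Of 34 contractile and actin-binding genes tested, 16 rose (47.1%, against 2.48% of all genes), with a median slope of 0.07. The list's median steps were 0.02, 0.13 and 0.05, against 0.04, 0.13 and 0.20 for all rising genes. By class 8 of the 16 were middle-step, 6 steady, 1 late-onset and 1 uneven. ACTA2 (hg19 chromosome 10, 90694831 to 90751154, - strand), which encodes smooth muscle alpha-actin, stood at 520.5, 509 and 536 CPM at 24 h, 491, 523 and 509 CPM at 48 h, 787, 698 and 886 CPM at 72 h and 1035, 906 and 960.2 CPM at 96 h. Libraries at 24 and 48 h overlapped, all at 72 h lay above them and all at 96 h above those. Its slope was 0.33 ± 0.04 (adjusted p = 0.00145), a 1.85-fold difference between 96 and 24 h, in steps of -0.04, 0.64 and 0.29.

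TAGLN, an actin-binding protein of smooth muscle, stood at 1483, 1355 and 1338 CPM at 24 h, 1495, 1513 and 1409.6 CPM at 48 h, 1861, 1742 and 2039.6 CPM at 72 h and 2208, 1892 and 2124 CPM at 96 h. The libraries at 24 and 48 h overlapped, as did those at 72 and 96 h, and the 2 pairs of days were apart. Its slope was 0.21 ± 0.02 (adjusted p = 4.26e-05). ACTG2, smooth muscle gamma-actin, stood at 438, 407 and 403 CPM at 24 h, 421, 443 and 427 CPM at 48 h, 519, 486 and 591 CPM at 72 h and 619, 569 and 586 CPM at 96 h, with the same overlaps, and rose by 0.18 ± 0.02 (adjusted p = 4.80e-05). ANKRD1, a muscle ankyrin repeat protein, had steps of 0.08, 0.67 and 0.25 and a slope of 0.37 ± 0.05 (adjusted p = 1.36e-04). The regulatory light chain MYL9 was steady at 0.16 ± 0.02 (adjusted p = 5.96e-05), and calponin CNN1 was middle-step at 0.15 ± 0.03 (adjusted p = 0.00157).

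Replicate 3 at 48 h, of the higher library set, had 509 CPM of ACTA2, between the other 2 libraries of that day, and 1409.6 CPM of TAGLN, below both. With 1 such library, whether the step follows the day or the library set was not tested. With the set as a term MYL9 and TAGLN were called (adjusted p = 0.0192 and 0.0416), while ACTA2, ACTG2, CNN1 and ANKRD1 were not (adjusted p = 0.197, 0.0647, 0.200 and 0.119). The list's count was 10 without replicate 1 at 96 h, 2 with that term and 5 within the higher set.

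The promoter of ACTG2 shows the kind of element that contractile genes are known for, the CArG box bound by serum response factor. Below are 250 bases before and 50 after its start (chr2:73892758-73893057, plus strand of GRCh38.p14, from RefSeq), with 2 matches to the CArG box in capitals.
ACTG2: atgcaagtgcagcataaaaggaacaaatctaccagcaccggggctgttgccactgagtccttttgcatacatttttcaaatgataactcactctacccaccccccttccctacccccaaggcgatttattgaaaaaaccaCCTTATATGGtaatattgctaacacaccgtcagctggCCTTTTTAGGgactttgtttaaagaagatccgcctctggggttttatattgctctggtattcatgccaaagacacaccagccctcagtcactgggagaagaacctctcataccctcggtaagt
A CArG box on either strand was found in 3 of the 14 called contractile genes with a promoter in the RefSeq table (21.4%), in 7 of the 29 tested ones (24.1%) and in 1.29% of all 27305 promoters. A match describes the letters in this window and does not show binding.

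**Figure D3:**
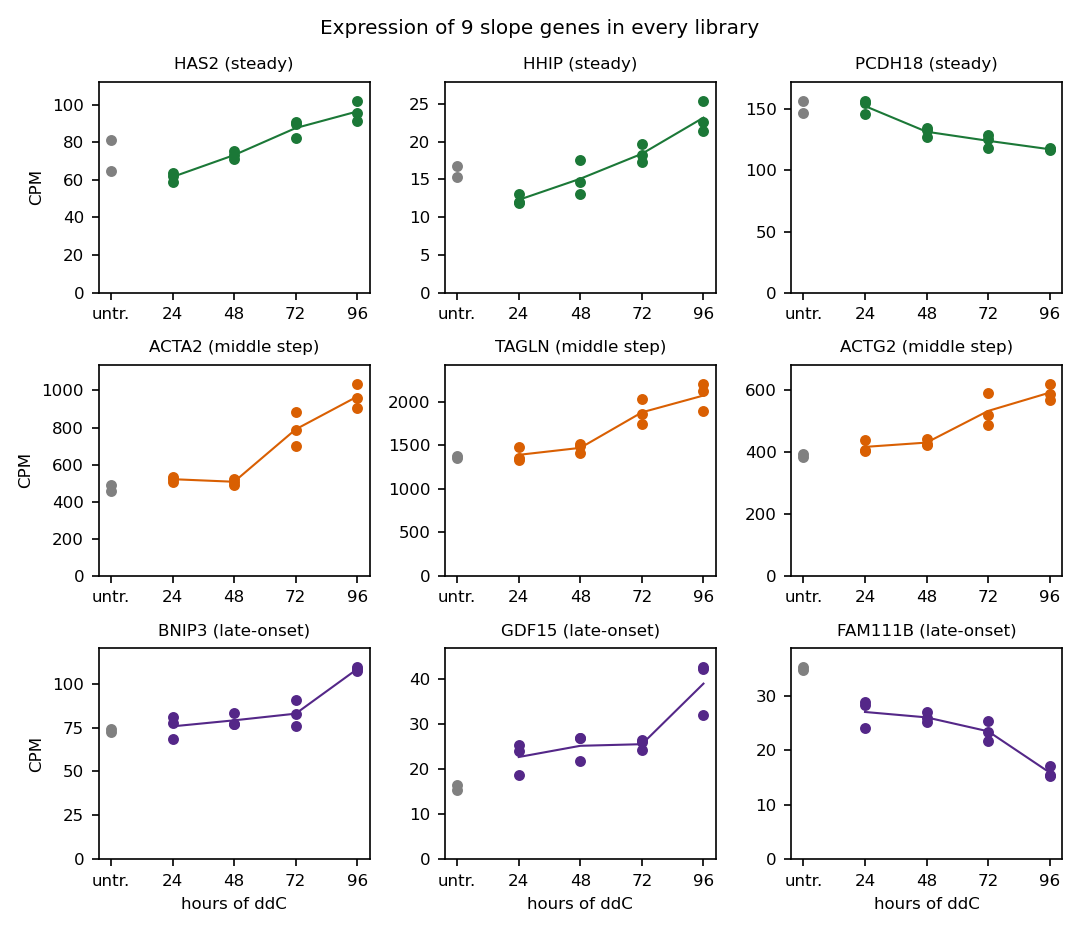
CPM (vertical axes, from 0) of 9 slope genes in untreated cells (grey, left) and after 24, 48, 72 and 96 h of ddC, 1 point per library, with lines through the daily means. HAS2, HHIP and PCDH18 change on every day, ACTA2, TAGLN and ACTG2 step up between 48 and 72 h, and BNIP3, GDF15 and FAM111B change mainly between 72 and 96 h.

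Of 28 hypoxia-response genes tested, 17 rose (60.7%), with a median slope of 0.11. The median steps were 0.01, 0.09 and 0.27. By class 13 of the 17 were late-onset and 4 steady. These genes are known as targets of hypoxia-inducible factor (HIF). BNIP3, a mitochondrial receptor for mitophagy (hg19 chromosome 10, 133781187 to 133795517, - strand), stood at 77.6, 68.6 and 80.9 CPM at 24 h, 83.1, 77.1 and 77.3 CPM at 48 h, 82.5, 75.8 and 90.5 CPM at 72 h and 108, 109 and 107 CPM at 96 h. Libraries from 24 to 72 h overlapped, and all at 96 h lay above them. Its slope was 0.16 ± 0.03 (adjusted p = 0.00137). Its last step exceeded the earlier daily pace by 0.32 ± 0.09, an excess that the late-onset class builds in and that was not called.

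CA9, a carbonic anhydrase of the cell surface (hg19 chromosome 9, 35673915 to 35681154, + strand), was scarce at 2.20, 1.54 and 2.30 CPM at 24 h, 1.84, 1.87 and 1.54 CPM at 48 h, 2.80, 1.88 and 2.86 CPM at 72 h and 3.98, 4.44 and 5.22 CPM at 96 h. All libraries at 96 h lay above the rest, the fold over 24 h was 2.26, and the slope was 0.44 ± 0.08 (adjusted p = 0.00405). NDRG1, a stress-induced gene that HIF regulates, stood at 105, 109 and 107 CPM at 24 h, 110.2, 111 and 102 CPM at 48 h, 108, 101 and 112 CPM at 72 h and 144, 146 and 144 CPM at 96 h. Its first 3 days overlapped with steps of 0.01, -0.01 and 0.43, and the slope was 0.13 ± 0.03 (adjusted p = 0.0151). Of 2 collagen-modifying enzymes, the prolyl hydroxylase P4HA1 rose by 0.15 ± 0.03 (adjusted p = 0.0184) and the lysyl hydroxylase PLOD2 by 0.16 ± 0.03 (adjusted p = 0.00517), both late-onset. SLC2A1, the glucose transporter GLUT1, was steady at 0.15 ± 0.02 (adjusted p = 1.11e-04), with steps of 0.11, 0.11 and 0.25. PDK1, the kinase that inhibits pyruvate dehydrogenase, rose by 0.09 ± 0.02 (adjusted p = 0.0424).

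Of 20 glycolytic genes tested 12 rose, with a median slope of 0.07 and median steps of 0.05, 0.02 and 0.14. Phosphoglycerate kinase PGK1 rose by 0.10 ± 0.02 (adjusted p = 0.00591) and aldolase ALDOA by 0.10 ± 0.02 (adjusted p = 0.00556), both late-onset. Triosephosphate isomerase TPI1 was steady at 0.09 ± 0.02 (adjusted p = 0.00550). Outside the list PGM1, a phosphoglucomutase of glycogen metabolism, was late-onset at 0.14 ± 0.02 (adjusted p = 5.03e-04). The lists share SLC2A1.

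Calls in these lists depended on the last day's libraries. The hypoxia count was 8, 10 or 9 without replicate 1, 2 or 3 at 96 h, and the glycolytic count 4 without replicate 1 or 3. NDRG1 lost its call without any 1 library at 96 h (adjusted p at most 0.0843), P4HA1 without any of these or replicate 2 at 24 h (0.0882), PGK1 without replicate 1 at 96 h (0.0507), and PDK1 without replicate 2 at 24 h or any 1 library at 48 or 96 h (0.205). With library set as a model term 5 hypoxia genes and 3 glycolytic genes were called, among them BNIP3, NDRG1, SLC2A1 and ALDOA, and not CA9 (adjusted p = 0.0858). DESeq2 did not call CA9 either. Within the higher set, from 48 to 96 h, 16 hypoxia genes and 5 glycolytic genes were called, CA9 among them (adjusted p = 0.00632).

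HIF is known to bind the core motif ACGTG. The promoters of CA9 (chr9:35673678-35673977, plus strand) and BNIP3 (chr10:131981874-131982173, minus strand) are given from RefSeq on GRCh38.p14, with ACGTG or its reverse complement CACGT in capitals. In BNIP3 the 2 strands' matches overlap as a palindrome.
CA9: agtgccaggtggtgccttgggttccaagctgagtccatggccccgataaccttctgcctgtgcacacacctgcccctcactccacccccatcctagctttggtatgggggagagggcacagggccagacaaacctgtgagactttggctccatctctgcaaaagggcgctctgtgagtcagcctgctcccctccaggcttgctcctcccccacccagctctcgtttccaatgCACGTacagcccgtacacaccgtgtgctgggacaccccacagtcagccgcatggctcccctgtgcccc
BNIP3: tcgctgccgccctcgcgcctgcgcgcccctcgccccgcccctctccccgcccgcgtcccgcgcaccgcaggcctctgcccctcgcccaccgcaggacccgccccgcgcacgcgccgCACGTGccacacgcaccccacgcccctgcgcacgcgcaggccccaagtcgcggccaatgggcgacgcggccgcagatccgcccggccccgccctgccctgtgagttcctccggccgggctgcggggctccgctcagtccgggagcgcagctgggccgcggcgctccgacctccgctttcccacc
ACGTG was found on either strand in 8 of the 14 called hypoxia genes with a promoter in the table (57.1%), in 13 of the 22 tested ones (59.1%), in 30.2% of all rising slope genes matched, in 26.9% of tested genes and in 21.6% of all promoters.

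ATF4 drives the amino acid response, and its listed targets rose in 19 of 52 tested (36.5%), with a median slope of 0.09. Their median first step was -0.07, followed by 0.13 and 0.15, so the list's median was lowest at 48 h. By class 8 were late-onset, 6 steady, 4 middle-step and 1 uneven. ATF4 itself stood at 255, 253 and 262 CPM at 24 h, 245, 248 and 240.4 CPM at 48 h, 282, 273 and 291 CPM at 72 h and 312, 296 and 316 CPM at 96 h. The libraries at 48 h lay below all at 24 h, those at 72 and 96 h above both, and its slope was 0.10 ± 0.02 (adjusted p = 0.00488). CHAC1, a glutathione-degrading enzyme, was steady at 0.15 ± 0.02 (adjusted p = 5.97e-04), as was the amino acid transporter SLC7A5 at 0.14 ± 0.02 (adjusted p = 6.04e-04). The pseudokinase TRIB3 was late-onset at 0.13 ± 0.03 (adjusted p = 0.0375).

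The asparagine synthetase ASNS and the serine synthesis enzyme PSAT1 did not pass in edgeR, at 0.10 ± 0.03 (adjusted p = 0.0562) and 0.10 ± 0.03 (adjusted p = 0.0676), and passed in DESeq2 (adjusted p = 0.0248 and 0.0231). ASNS stood at 163, 165 and 182 CPM at 24 h, 154, 144 and 162 CPM at 48 h, 169.7, 176 and 174 CPM at 72 h and 205, 208 and 200.1 CPM at 96 h. Its libraries at 96 h lay above all others and those at 48 h below all others, with steps of -0.15, 0.18 and 0.24. Without the day 1 libraries 32 ATF4 targets were called, ASNS and PSAT1 among them. Both were also called without replicate 3 at 24 h, ASNS without replicate 2 at 48 h and PSAT1 without replicate 1 at 24 h. The list's count was 9, 12 or 9 without replicate 1, 2 or 3 at 96 h, and TRIB3 lost its call without any 1 of 8 libraries, replicates 1 at 24 h, 3 at 72 h and all at 48 and 96 h (adjusted p at most 0.181). With library set as a model term 5 targets were called, including STC2, CHAC1 and SLC7A5, and not ATF4 (adjusted p = 0.214). Within the higher set, from 48 to 96 h, 20 targets were called, and ATF4 passed (adjusted p = 0.0197).

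Both genes that departed from a line had their lowest libraries at 48 h and their highest at 96 h. DDIT4, an inhibitor of mTORC1 signalling found in the ATF4 and hypoxia lists, stood at 72.9, 78.9 and 74.2 CPM at 24 h, 68.3, 68.5 and 63.3 CPM at 48 h, 74.2, 81.5 and 88.0 CPM at 72 h and 123, 109.7 and 124 CPM at 96 h. All libraries at 48 h lay below all at 24 h, and all at 96 h above the rest. The departure had an adjusted p of 0.0185, the steps were -0.18, 0.28 and 0.55 and the slope was 0.23 ± 0.05 (adjusted p = 0.0348). SULF1, an enzyme that removes sulfate from heparan sulfate, stood at 95.3, 87.1 and 97.3 CPM at 24 h, 78.6, 84.3 and 86.4 CPM at 48 h, 107, 106 and 110.2 CPM at 72 h and 169, 149.95 and 148 CPM at 96 h. Its order of days was the same, except that all libraries at 72 h lay above those at 24 h. Its departure had the same adjusted p, with steps of -0.17, 0.37 and 0.53 and a slope of 0.26 ± 0.05 (adjusted p = 0.0149). Leaving out 1 library gave 0 to 5 genes with a called departure, 0 of them without replicate 1 at 24 h, replicates 1 or 2 at 48 h or replicate 1 at 96 h, and 5, 4 and 4 without replicate 2 at 24 h, 2 at 72 h and 3 at 72 h, and 1 without replicate 3 at 48 or 96 h. The slope call of DDIT4 ended without any 1 of 7 libraries, replicates 1 at 24 h, 1 and 2 at 48 h, 3 at 72 h and all at 96 h (adjusted p at most 0.130), and that of SULF1 without replicate 2 or 3 at 96 h (0.0631).

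The p53 targets were called in 4 of 41 (9.76% rising), with a median slope of 0.06 and median steps of -0.01, 0.02 and 0.19. CDKN1A, which encodes p21, a brake on the cell cycle, stood at 527, 602 and 634 CPM at 24 h, 679, 631 and 619.6 CPM at 48 h, 643, 630.2 and 747 CPM at 72 h and 856, 878 and 903 CPM at 96 h. Libraries from 24 to 72 h overlapped and those at 96 h lay above all of them. Its slope was 0.18 ± 0.03 (adjusted p = 7.49e-04), with steps of 0.13, 0.07 and 0.39. At 24 h, where the fitted line begins, it was already above its untreated values of 450.0 and 429 CPM in each library, a difference the slope does not include. GDF15, a secreted stress factor, stood at 18.7, 24.0 and 25.3 CPM at 24 h, 26.9, 26.9 and 21.7 CPM at 48 h, 24.3, 25.9 and 26.4 CPM at 72 h and 32.0, 42.6 and 42.3 CPM at 96 h and was late-onset at 0.24 ± 0.05 (adjusted p = 0.0175). TRIM22, an antiviral protein, rose by 0.12 ± 0.03 (adjusted p = 0.0208), and SPATA18, a mitochondrial quality control protein, by 0.20 ± 0.05 (adjusted p = 0.0261).

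CDKN1A and GDF15 were called with library set as a model term (adjusted p = 0.0191 for each). The call of GDF15 ended without replicate 1 at 24 h or replicate 2 or 3 at 96 h (at most 0.0654), that of TRIM22 without replicate 1 or 2 at 96 h (0.137), and that of SPATA18 without replicate 1 or 2 at 24 h or any at 96 h (0.161). The list's count was 2 without replicate 1 at 24 h, 7 without replicate 3 at 24 h, and 2, 1 and 2 without replicates 1, 2 and 3 at 96 h, and DESeq2 gave 7. It was 16 when nuclear RNA was a covariate, and 24 with untreated cells as day 0, of which 23 rose.

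Collagens and other matrix genes rose in 13 of 48 tested (27.1%), with a median slope of 0.08 and median steps of -0.09, 0.14 and 0.19. By class 9 were late-onset, 3 steady and 1 middle-step. COL11A1, a minor fibrillar collagen (hg19 chromosome 1, 103342023 to 103574052, - strand), stood at 12.2, 9.76 and 13.9 CPM at 24 h, 10.7, 11.9 and 14.6 CPM at 48 h, 17.6, 14.9 and 15.3 CPM at 72 h and 30.4, 30.3 and 27.8 CPM at 96 h. Libraries at 24 and 48 h overlapped, all at 72 h lay above them, and all at 96 h were far above, a 2.47-fold difference from 24 h. Its slope was 0.45 ± 0.06 (adjusted p = 0.00124). Its last step exceeded the earlier pace by 0.68 ± 0.16, an excess that was not called. ELN, the elastin of elastic fibres, stood at 156, 186 and 172 CPM at 24 h, 180.4, 183 and 168 CPM at 48 h, 227, 229 and 266 CPM at 72 h and 326, 289 and 345 CPM at 96 h. Its libraries at 48 h lay within the range of those at 24 h, all at 72 h above both and all at 96 h above those. It was classed as steady, with a slope of 0.31 ± 0.03 (adjusted p = 1.31e-04). Fibulin FBLN1 was late-onset at 0.12 ± 0.02 (adjusted p = 0.001001). COL1A2, a chain of type I collagen, rose by 0.09 ± 0.02 (adjusted p = 0.0123), while COL1A1 and COL3A1 did not pass (slopes of 0.10 ± 0.03 and 0.07 ± 0.03, adjusted p = 0.0656 and 0.277).

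IGFBP3, a binding protein of insulin-like growth factors, stood at 503, 406 and 445 CPM at 24 h, 486, 489 and 475 CPM at 48 h, 652, 590.3 and 711 CPM at 72 h and 932, 788 and 816 CPM at 96 h. Its libraries at 24 and 48 h overlapped, and those at 72 and 96 h were each above all earlier ones. It was classed as steady, with a slope of 0.31 ± 0.03 (adjusted p = 8.56e-05). IGFBP4, its relative, was late-onset at 0.19 ± 0.03 (adjusted p = 4.97e-04), as were TIMP3, an inhibitor of metalloproteinases, at 0.13 ± 0.02 (adjusted p = 1.49e-04), the OX40 ligand TNFSF4 at 0.29 ± 0.04 (adjusted p = 2.24e-04) and the small heat shock protein HSPB6 at 0.20 ± 0.03 (adjusted p = 3.63e-04). INHBA, the activin A subunit, was steady at 0.14 ± 0.02 (adjusted p = 5.96e-05). Of 24 genes listed as responsive to TGF-beta, 5 rose (20.8%), and 1 was called with library set as a model term.

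COL1A2 lost its call without replicate 1 or 3 at 96 h (at most 0.103), and the matrix count was 21 without replicate 2 at 24 h and 22 by DESeq2. With library set as a model term 8 matrix genes were called, including ELN, FBLN1 and LOX, and not COL11A1 (adjusted p = 0.130). Within the higher set, from 48 to 96 h, 26 of 48 matrix genes rose, COL11A1 among them (adjusted p = 0.00232). Over the same days the summed epithelial markers, 10 genes, were 56.7 to 64.7 CPM at 24 h, 60.4 to 69.8 at 48 h, 64.8 to 73.6 at 72 h and 75.3 to 83.1 at 96 h, mostly from the keratin KRT18 (slope 0.15 ± 0.03 (adjusted p = 0.00138)). Their part in the results was not tested. The defining markers CDH1, SFTPC and NKX2-1 were at 0 and EPCAM at most 0.794 CPM. Summed fibroblast markers, 10 genes, were 33286 to 37447 CPM at 24 h and 39154 to 42489 CPM at 96 h. Most of that sum was COL1A1 and COL1A2, and the fibroblast receptor PDGFRA had a called slope of -0.08 ± 0.02 (adjusted p = 0.0425), a call lost without any 1 of 8 libraries, all but replicates 3 at 24 h, 1 and 2 at 48 h and 2 at 72 h (at most 0.159).

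**Figure D4:**
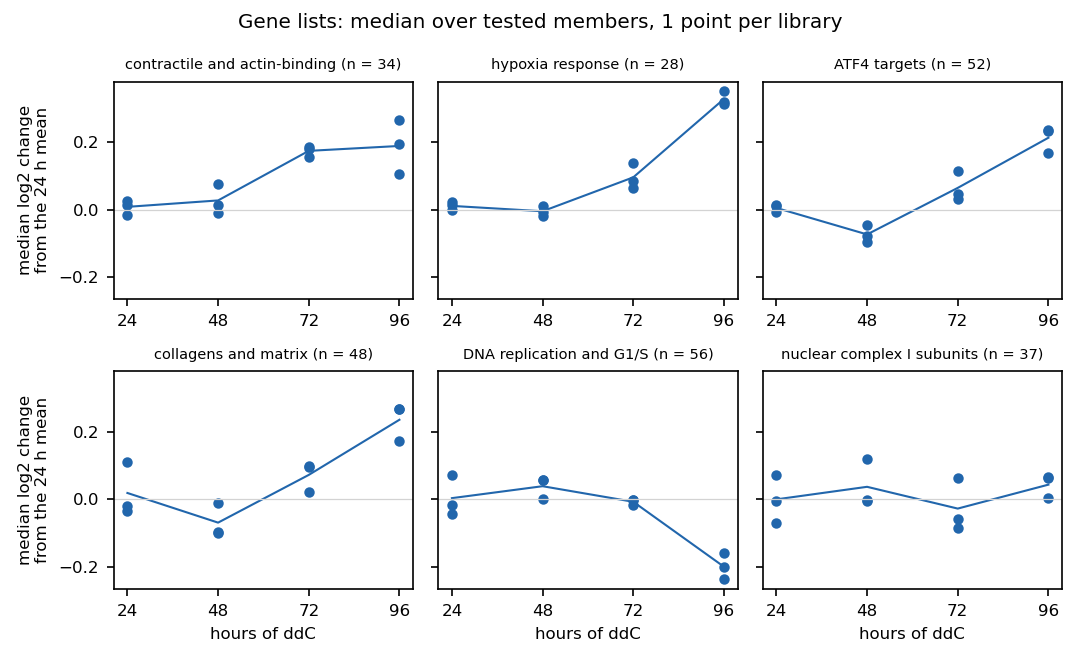
Median over the tested members of 6 gene lists of the log2 difference from the mean of the 24 h libraries (vertical) against hours of ddC (horizontal), 1 point per library, with lines through the daily means. Contractile genes step up at 72 h, hypoxia-response, ATF4 and matrix genes are highest at 96 h, DNA replication genes are lowest at 96 h, and complex I subunits overlap between days.

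Of 56 DNA replication and G1/S genes tested, 8 fell (14.3%, against 0.538% of all genes), with a median slope of -0.06. The median steps were 0.05, -0.07 and -0.19, and all 8 called genes were late-onset. FAM111B, a serine protease family member (hg19 chromosome 11, 58874658 to 58894888, + strand), stood at 28.2, 28.7 and 24.0 CPM at 24 h, 25.8, 25.2 and 27.0 CPM at 48 h, 23.2, 25.4 and 21.7 CPM at 72 h and 15.4, 15.2 and 17.0 CPM at 96 h. Libraries from 24 to 72 h overlapped, those at 96 h lay below all of them, and the slope was -0.24 ± 0.04 (adjusted p = 0.00123). Untreated cells had 35.2 and 34.7 CPM, above every ddC library.

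Subunits of the replicative MCM helicase fell, with MCM6 at -0.12 ± 0.02 (adjusted p = 0.00405), MCM4 at -0.11 ± 0.02 (adjusted p = 0.00405), MCM2 at -0.13 ± 0.03 (adjusted p = 0.00953) and MCM7 at -0.11 ± 0.03 (adjusted p = 0.0157). MCM6 stood at 96.3, 85.2 and 89.7 CPM at 24 h, 91.7, 89.7 and 86.7 CPM at 48 h, 86.6, 80.1 and 84.8 CPM at 72 h and 66.9, 73.4 and 70.4 CPM at 96 h, with overlap of 24 h with 48 and 72 h, all libraries at 72 h just below all at 48 h, and all at 96 h below the rest. MCM7 stood at 233, 226 and 207 CPM at 24 h, 238, 240.1 and 227 CPM at 48 h, 217, 211 and 217 CPM at 72 h and 169, 179 and 178 CPM at 96 h, with the same order and overlaps, in steps of 0.08, -0.13 and -0.30. The origin recognition subunit ORC1 was at -0.16 ± 0.04 (adjusted p = 0.0170), and CLSPN, the claspin of the replication checkpoint, at -0.11 ± 0.03 (adjusted p = 0.0492). The other called member was CCNE2, cyclin E2, at -0.18 ± 0.04 (adjusted p = 0.0109).

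E2F2, a transcription factor of S-phase entry, did not pass, at -0.21 ± 0.08 (adjusted p = 0.220). It stood at 5.24, 5.42 and 3.18 CPM at 24 h, 5.25, 6.11 and 5.18 CPM at 48 h, 4.53, 5.20 and 5.03 CPM at 72 h and 2.59, 3.22 and 2.69 CPM at 96 h, so that the libraries at 96 h and replicate 3 at 24 h lay below all others. Without that 24 h library it was called (slope of -0.29, adjusted p = 0.0193), as it was without the day 1 libraries and with untreated cells as day 0. G2/M and mitosis genes were called in 0 of 45 by edgeR, DESeq2 and limma-voom (7 falling at an unadjusted p under 0.05), with a median slope of -0.03 and median steps of 0.01, 0.01 and -0.13. Among them the proliferation marker MKI67 stood at -0.07 ± 0.05 (adjusted p = 0.564) and topoisomerase TOP2A at 0.02 ± 0.02 (adjusted p = 0.775).

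These falls were sensitive to single libraries. The list's count was 3, 4 or 4 without replicate 1, 2 or 3 at 96 h and 14 without replicate 3 at 24 h. MCM2 lost its call without replicate 1 or 2 at 96 h (adjusted p at most 0.0659), MCM7 without any 1 at 96 h (0.101), ORC1 without these or replicate 1 at 24 h (0.101), and CLSPN without any 1 of 9 libraries, all but replicates 3 at 24 h and 1 and 2 at 72 h (0.239). With library set as a model term 2 members were called, among them FAM111B (adjusted p = 0.0263). The 4 MCM genes were not (adjusted p = 0.0981 or more). Within the higher set 11 members were called, all falling. MCM4, MCM7 and MCM6 passed there (adjusted p = 0.00411, 0.0045 and 0.0431), and MCM2 did not (adjusted p = 0.0932). The list's count was 15 when nuclear RNA was a covariate and 26 with untreated cells as day 0, all falling.

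Transcription of MCM genes is known to be controlled by E2F factors. The promoter of MCM6 (chr2:135876394-135876693, minus strand of GRCh38.p14, from RefSeq) has the E2F letters TTTGGCGC at 2 places, in capitals.
MCM6: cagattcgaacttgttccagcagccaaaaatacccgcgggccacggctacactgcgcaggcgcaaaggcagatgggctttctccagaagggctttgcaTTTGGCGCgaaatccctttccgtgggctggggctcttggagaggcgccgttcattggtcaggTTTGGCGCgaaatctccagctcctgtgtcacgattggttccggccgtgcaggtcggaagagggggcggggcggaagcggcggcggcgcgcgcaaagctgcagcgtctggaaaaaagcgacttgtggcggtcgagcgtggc
TTTCCCGC or TTTGGCGC on either strand was found in 3 of the 5 called DNA replication genes with a promoter in the table, in 20 of the 44 tested ones (45.5%), in 14.9% of all falling slope genes matched and in 2.31% of all promoters.

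Of 22 tested NF-kB and secreted inflammatory genes, 5 rose (22.7%) and 2 fell (9.09%), and 6 of the 7 were steady. PTGS2, the inducible cyclooxygenase, rose by 0.32 ± 0.04 (adjusted p = 1.49e-04), the cytokine IL11 by 0.14 ± 0.02 (adjusted p = 3.81e-04) and IL6 by 0.24 ± 0.06 (adjusted p = 0.0278). The adhesion molecule ICAM1 was late-onset at 0.23 ± 0.04 (adjusted p = 0.00148). Of 27 immediate early genes 4 rose (14.8%), among them the phosphatase DUSP1 at 0.11 ± 0.02 (adjusted p = 9.27e-04) and the transcription factor ATF3 at 0.21 ± 0.04 (adjusted p = 0.00692). IL6 lost its call without replicate 1 or 3 at 24 h or 1 or 2 at 96 h (at most 0.104), and the immediate early count was 2 without replicate 1 at 96 h. The model with library set called 0 genes of the inflammatory list and 1 of the immediate early list.

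At 1 log2 CPM or more, the largest falls by slope were those of MMP3, a matrix metalloproteinase (-0.37 ± 0.07 (adjusted p = 0.00362)), HEY1, a Notch target (-0.25 ± 0.05 (adjusted p = 0.00405)), the adhesion receptor ADGRG1 (-0.25 ± 0.05 (adjusted p = 0.0104)), SPATA6 (-0.24 ± 0.07 (adjusted p = 0.0457)), FAM111B, AKR1C1, an aldo-keto reductase listed as an NRF2 target (-0.22 ± 0.04 (adjusted p = 0.00425)), TRPA1 and the nectin NECTIN1 (-0.18 ± 0.04 (adjusted p = 0.0175)). MMP3 was scarce, at 4.19, 4.70 and 5.03 CPM at 24 h, 5.80, 3.06 and 3.81 CPM at 48 h, 2.55, 2.73 and 3.12 CPM at 72 h and 2.42, 2.09 and 2.19 CPM at 96 h. Its libraries at 72 and 96 h lay below all at 24 h, and those at 96 h below all at 48 h. DESeq2 did not call MMP3 or SPATA6, where a missing adjusted p counts as not called. KCNMA1, a calcium-activated potassium channel, was a late-onset fall of higher abundance at -0.16 ± 0.03 (adjusted p = 0.00215). ADGRG1 lost its call without replicate 1 at 96 h (adjusted p at most 0.0666), NECTIN1 without any 1 at 96 h (0.0975) and SPATA6 without any 1 of 10 libraries, all but replicates 2 at 24 h and 3 at 72 h (0.185). With library set as a model term FAM111B and TRPA1 were called (adjusted p = 0.0263 and 0.0229). The other genes of this paragraph were not (smallest adjusted p = 0.158, for KCNMA1). Within the higher set FAM111B, TRPA1 and KCNMA1 were called, and the others were not (smallest adjusted p = 0.160, for NECTIN1).

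At 1 log2 CPM or more, the largest rises by slope included genes lying opposite a far more abundant gene, which followed the library set. SNX22, opposite PPIB (334 times more reads), stood at 0.314, 0.271 and 0 CPM at 24 h, 0.368, 0.509 and 2.75 CPM at 48 h, 2.72, 3.33 and 3.56 CPM at 72 h and 4.75, 4.18 and 4.54 CPM at 96 h. VIM-AS1, opposite VIM (654 times), stood at 5.45, 3.07 and 2.91 CPM at 24 h, 4.97, 4.16 and 8.51 CPM at 48 h, 9.47, 10.8 and 12.2 CPM at 72 h and 12.01, 11.8 and 15.1 CPM at 96 h. In both, replicate 3 at 48 h was nearer to the lowest library at 72 h than to the other libraries of its own day. Their slopes were 1.14 ± 0.21 (adjusted p = 0.00984) and 0.61 ± 0.08 (adjusted p = 0.00103), and with library set as a model term their adjusted p was 0.234 and 0.212. In all, 5 called genes lay opposite a gene over 20 times more abundant, all rising. The setting used for strand when counting is not given in the sources used here, so reads of these genes may belong to the opposite gene.

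The other largest rises at that abundance were COL11A1, CA9, ANKRD1, the glycosyltransferase EXTL1 (0.44 ± 0.09 (adjusted p = 0.00617)), the actin-associated SYNPO2L (0.39 ± 0.08 (adjusted p = 0.00442)) and the protease inhibitor SPINT2 (0.37 ± 0.09 (adjusted p = 0.0164)). EXTL1, SYNPO2L and SPINT2 had 0.994 to 3.87 CPM in every ddC library. EXTL1 lost its call without replicate 3 at 96 h (0.0503) and SPINT2 without replicate 1 at 96 h (0.124). DESeq2 did not call CA9, EXTL1, SYNPO2L, SPINT2 or the SNX22 above, where a missing adjusted p counts as not called. With library set as a model term EXTL1, SYNPO2L and SPINT2 were not called (smallest adjusted p = 0.137).

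In 5 lists of nuclear genes for mitochondrial function edgeR called no slope in the fit on the day alone. Complex I subunits (0 of 37), complexes II to V (0 of 38), mitochondrial ribosomal proteins (0 of 74), mtDNA maintenance and expression (0 of 28) and mitochondrial chaperones and proteases (0 of 17) had median slopes of 0.00, 0.01, -0.02, -0.03 and -0.01. At an unadjusted p under 0.05 they held 4, 3, 4, 1 and 3 genes, and DESeq2 and limma-voom also called 0 in each. Adjusting for nuclear RNA gave 2 falling genes of complexes II to V and 2 falling mitochondrial ribosomal proteins. It also gave 1 rising gene of mtDNA maintenance and expression, and 1 rising and 1 falling among chaperones and proteases. Complex I still had 0. With library set as a model term, and also within the higher set, 1 gene of complexes II to V rose. The higher set also had 1 falling chaperone or protease. Untreated cells as day 0 gave 1 rising complex I gene and called genes in each of the other lists. Without replicate 2 at 24 h, 1 mitochondrial ribosomal protein and 1 chaperone or protease fell. Without replicate 3 at 24 h, 1 gene of mtDNA maintenance and expression rose. TFAM, which packages mtDNA, stood at 47.5, 39.0 and 45.5 CPM at 24 h, 45.9, 41.8 and 47.8 CPM at 48 h, 45.2, 40.5 and 43.0 CPM at 72 h and 39.1, 42.5 and 36.8 CPM at 96 h, overlapping on every day, with a slope of -0.05 ± 0.03 (adjusted p = 0.361). POLG, the catalytic subunit of polymerase gamma, had a slope of -0.01 ± 0.04 (adjusted p = 0.940), and SSBP1, the mitochondrial single-stranded DNA-binding protein, one of 0.02 ± 0.02 (adjusted p = 0.794). The chaperone HSPD1 stood at -0.06 ± 0.02 (adjusted p = 0.162). Its fall was called after adjusting for nuclear RNA (adjusted p = 0.0430) and within the higher set (adjusted p = 0.0473). Leaving out replicate 2 at 24 h or all day 1 libraries also gave a call, as did untreated cells as day 0. Fitting library set and nuclear RNA together gave a call, whereas library set alone did not (adjusted p = 0.218). Cytosolic ribosomal proteins (0 of 70), nucleotide metabolism genes (0 of 36) and fatty acid synthesis genes (0 of 12) also had no called member by these 3 tools, with 9, 1 and 2 genes at an unadjusted p under 0.05. Adjusted for nuclear RNA, 3 cytosolic ribosomal proteins rose, and the other 2 lists still had 0.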

How the data were processed

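The labels' protocols give polyadenylated RNA and a stranded mRNA library kit. According to the submitters' processing notes the tools were STAR 2.5.3a and HOMER, with build hg19. The authors deposited 1 table of raw counts per gene for 27142 genes, and each of its 14 library columns matched a sample by name.

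The line over days was fitted in edgeR 4.0.16 (R 4.3.3) with a robust quasi-likelihood fit of the 12 ddC libraries, TMM factors and filterByExpr (minimum count 10, minimum total 15). The SE of a log2 value is its size divided by the square root of the F statistic. CPM values use TMM over 14 libraries. Scripts were tested on simulated data. P-values of the fit with 1 mean per day measure the spread between the 3 replicates of each day. Those of the slope also count departures of the days from the line as spread. The opposite-strand index sums reads of genes that overlap, on the other strand, a gene of at least 200 CPM and hold under 0.5% of its level, a limit chosen after seeing the data.

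Members, gene lists and classes were chosen with earlier results of these data known, so no list is independent evidence. Named genes were the 8 largest called rises and falls of at least 1 log2 CPM, called departures, the 5 steady and 5 late-onset genes of smallest p in each direction of at least 4 log2 CPM, the 3 of smallest p in lists with 3 or more calls, and fixed genes. Others are list members or markers, or were picked after their values were seen. Alternatives were median-ratio size factors, DESeq2 1.42.0, limma-voom (limma 3.58.1), no filter, a replicate block, covariates, subsets of libraries and leaving out each library. Promoters are RefSeq's on GRCh38.p14, matched by symbol for 289 of 398 slope genes. Y-linked genes and X-inactivation transcripts are left out of the gene values, and some genes are not reported here.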

Additional observations from a re-analysis of the deposited data

How the results depend on the processing

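All 398 slope genes kept their sign under every alternative except within the higher library set (397 did), without the libraries at 96 h (396), within the lower set (253) and where genes opposite a far more abundant one were left out (393 of 393 remaining). Median-ratio size factors, DESeq2, limma-voom, no filter and the opposite-strand index as a covariate gave 414, 511, 396, 399 and 400 slope genes. The nuclear RNA score as a covariate gave 938 (640 rising, 298 falling), 82 departures from a line, 18 genes with a different last step and 107 between 72 and 24 h. The library set as a term gave 68 slope genes (65 and 3), 1 departure and 0 between 72 and 24 h, with 14.7% late-onset, 82.4% steady and 2.94% middle-step. The set and the score together gave 112 departures, 25 last steps and 8 between 72 and 24 h, with 18.8% late-onset, 70.8% steady and 6.38% middle-step. The index as a covariate gave 122 falling genes and 0 between 72 and 24 h, with 25.2% late-onset, 66.0% steady and 3.25% middle-step. Untreated cells as day 0 gave 926 (602 and 324), the higher set alone 234 (193 and 41) and the lower set alone 0 in either direction over days 1 and 2. Without the day 1 libraries 122 genes fell, and without the day 4 libraries 2 rose and 0 fell. DESeq2 gave 45 departures, 11 last steps and 48 between 72 and 24 h, no filter gave 12 and 49 of the first and last of these, and a quadratic term alone gave 16 departures. A step share over 0.5 gave 18.3% steady, and one over 0.7 gave 21.6% late-onset and 9.30% middle-step. The cause of these differences was not tested.

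Leaving out 1 library gave 157 to 515 slope genes (137 to 384 rising, 20 to 131 falling), 0 to 5 departures, 0 last steps, 2 to 18 between 72 and 24 h, 28.6 to 44.6% late-onset, 32.5 to 47.4% steady and 10.5 to 22.3% middle-step. The 5 alternatives chosen after seeing the data were those without day 1, without day 4, with set and score together, with the index, and without opposite-strand genes. The replicate number as a block gave 361 slope genes. Numbers did not pair the libraries: deviations of same-numbered libraries correlated at -0.39 to 0.64 over 18 pairs, with 7 over 0.1, and 4 of 12 libraries correlated best with their own number.

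Within the lower set, from 24 to 48 h, 23 slope genes among the 98 genes followed had a slope of the other sign, none called there (adjusted p = 0.999 in each): COL11A1 -0.086, CA9 -0.12, ADGRG1 0.14, NECTIN1 0.016, SULF1 -0.20, DDIT4 -0.15, TNFSF4 -0.063, KCNMA1 0.082, MCM4 0.015, MCM2 0.11, ATF3 -0.0059, ACTA2 -0.048, ATF4 -0.063, MCM7 0.099, TRIB3 -0.083, HERPUD1 -0.019, PLOD2 -0.063, P4HA1 -0.087, PDK1 -0.029, CALD1 -0.10, THBS2 -0.094, SPARC -0.076 and COL1A2 -0.064. Genes followed that were not slope genes are not in this count. Of 2737 gene results under alternatives, 483 kept direction but lost the call and 28 gained one. In 23 the direction reversed for a gene called in either fit. The other 2203 kept their side of the threshold. These include changes of sign where neither fit called the gene, as for TOP2A with library set as a model term (slope of -0.03). The smallest called slope was 0.060 per day.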

Other observations

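Lists not described above had few called slopes, given here in log2 units per day ± SE over 12 libraries. Interferon-stimulated genes rose in 3 of 41 (7.32%), 2 of them the class I molecules HLA-B (0.10 ± 0.02 (adjusted p = 0.0202)) and HLA-E (0.08 ± 0.02 (adjusted p = 0.0248)), and the other TRIM22. HLA-B and HLA-E lost their calls without replicate 1 at 24 h or any 1 library at 96 h (adjusted p at most 0.119 and 0.141). Of 27 ER stress genes 2 rose (7.41%), XBP1, a transcription factor of the unfolded protein response (0.09 ± 0.02 (adjusted p = 0.0123)), and HERPUD1, a protein of ER-associated degradation (0.09 ± 0.02 (adjusted p = 0.0360)). XBP1 lost its call without replicate 2 or 3 at 96 h (0.0773) and HERPUD1 without replicate 1 at 24 h, 2 or 3 at 48 h, 3 at 72 h or any at 96 h (0.213). Of 24 NRF2 targets 2 fell (8.33%), AKR1C1 and the glutathione reductase GSR (-0.09 ± 0.02 (adjusted p = 0.0149)). Lysosome and autophagy genes rose in 2 of 31 (6.45%), both mitophagy receptors of the hypoxia list, BNIP3 and BNIP3L (0.11 ± 0.02 (adjusted p = 0.0114)). In the tricarboxylic acid cycle 1 of 24 rose, the mitochondrial isocitrate dehydrogenase IDH2 (0.08 ± 0.02 (adjusted p = 0.0299)). In cholesterol synthesis and uptake 1 of 24 rose, the sterol carrier STARD4 (0.11 ± 0.03 (adjusted p = 0.0425)). Of 47 ribosome biogenesis genes 1 fell, DDX10 (-0.10 ± 0.02 (adjusted p = 0.0325)). Of all genes 2.48% rose and 0.538% fell. With library set as a model term the interferon, ER stress, NRF2, tricarboxylic acid, cholesterol and ribosome biogenesis lists had 0 called genes, and without replicate 1 or 2 at 96 h the interferon list had 0. The NRF2 count was 1 without replicate 3 at 24 h or 1 at 96 h, and the lysosome count was 1 without any 1 library at 96 h and 5 rising without replicate 3 at 24 h. The lists of IDH2, of STARD4 and of DDX10 each had 0 called genes without any 1 library at 96 h.

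In genes whose 24 h libraries differed from untreated cells, the slope omits the first day. GDF15 had 18.7, 24.0 and 25.3 CPM at 24 h, above its untreated 16.5 and 15.3 CPM, and E2F2 had 5.24, 5.42 and 3.18 CPM at 24 h, below its untreated 8.41 and 7.67 CPM. HAS2 and HHIP were instead lower at 24 h than in untreated cells, at 63.8, 58.7 and 62.2 CPM against 81.4 and 64.8 CPM and 11.95, 11.8 and 13.1 CPM against 16.8 and 15.3 CPM, and exceeded the untreated values at 96 h. These differences were not tested here.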
